A study of Mus musculus with 6 samples.

Results

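The p38 mitogen-activated protein kinases and their nearest partners were examined in mouse keratinocytes with and without the α3 integrin subunit. The group holds 8 genes of the 49315 counted, chosen by GENCODE M21 symbol. They are the 4 p38 isoform genes Mapk11 (p38β), Mapk12 (p38γ), Mapk13 (p38δ) and Mapk14 (p38α), the activating kinase genes Map2k3 and Map2k6, and the effector kinase genes Mapkapk2 and Mapkapk3. The choice was made with the difference between the groups already known, so the fold changes of the 8 genes below, and whether each fell among the genes called in a fit over all genes, are a description and support nothing. RNA was sequenced from 2 groups of 3 libraries. Control was MK-546 (MK-/-), an immortalized mouse keratinocyte line that lacks α3 integrin. 3A was MK-546-ha3A (MK-/-:ha3), the α3-null keratinocytes reconstituted with human α3. Both grew untreated in low calcium medium on collagen, at 33 °C and 8% CO2. Each group was 1 cell line, so α3 and the descent of the line cannot be told apart, and nothing in the labels says that the 3 libraries came from separate cultures. P-values here therefore reflect the variation among these particular libraries alone, and that variation may be technical. Values listed per library follow the order of libraries 1, 2 and 3.

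The p38 kinases relay stress and cytokine signals through 3 tiers of kinases. A MAP3 kinase activates MKK3 (Map2k3) or MKK6 (Map2k6), which phosphorylate the p38 isoforms, and p38α and p38β in turn activate MK2 (Mapkapk2) and MK3 (Mapkapk3), kinases known for stabilizing mRNAs with AU-rich elements. p38α is the broadly expressed isoform, p38γ is known from skeletal muscle and carries a C-terminal motif that binds PDZ domains, and p38δ is known in epidermis for its links to keratinocyte differentiation. These kinases are switched by phosphorylation, which transcript counts do not measure.

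Total counts ranged from 25634204 to 36245240 per library. Control 1 stood apart: its log2 CPM (counts scaled by library size) correlated with Control 2 and Control 3 at 0.957 and 0.953 across genes, against 0.988 between those, and at up to 0.955 with a 3A library. Genes are not independent replicates, and these values describe the libraries. Mitochondrial mRNA took 4.19% and 4.73% of the counts in Control 2 and Control 3 and from 1.17% to 1.59% in the other 4 libraries. The keratinocyte markers Krt5, Krt14, Trp63, Krt15, Itgb4 and Cdh1 summed to 8083 to 9553 CPM in Control and 5950 to 7635 CPM in 3A. Of the 6, Krt15 and Trp63 were called lower, Trp63 near the threshold (edgeR adjusted p = 0.0491). Krt15 had 106, 116 and 82 counts across the Control libraries, against 12, 7 and 2 across those of 3A. It passed the low-count filter through its Control libraries, which fixes the direction of its call. In bulk RNA, fewer cells of a type and less RNA per cell cannot be told apart. Of the markers of other cell types, 7 for fibroblasts summed to at most 3.40 CPM and 4 for endothelium to at most 0.946 CPM in any library. The 5 for melanocytes summed to 3.28 to 3.91 CPM in Control and 1.63 to 2.13 CPM in 3A, with Pmel called lower. The 5 leukocyte markers summed to between 9.83 and 20.1 CPM, nearly all from Cd68, with Ptprc at 0.0557 CPM or less. Lum, Dct and Adgre1, which help define fibroblasts, melanocytes and macrophages, had 0 counts in every library. Their part in the results was not tested.

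The widest difference lay at a pair of neighbouring isoform genes. Mapk12 was expressed at a low level in Control and was nearly absent from 3A, while Mapk11 was expressed in both groups. The pair lies on the minus strand of chromosome 15 (GRCm38), Mapk12 at 89130584 to 89140703 and Mapk11 at 89142486 to 89149628, with 1.782 kb between them. The 250 bases upstream of each RefSeq start site (GRCm38.p6, minus strand) are shown because the counts of one gene of the pair nearly vanish in 3A and those of its neighbour do not. Capitals mark the CG dinucleotides. The first window spans chr15:89140704-89140953 and the second chr15:89149607-89149856, of which the last 22 bases fall inside the GENCODE gene model.
Mapk12: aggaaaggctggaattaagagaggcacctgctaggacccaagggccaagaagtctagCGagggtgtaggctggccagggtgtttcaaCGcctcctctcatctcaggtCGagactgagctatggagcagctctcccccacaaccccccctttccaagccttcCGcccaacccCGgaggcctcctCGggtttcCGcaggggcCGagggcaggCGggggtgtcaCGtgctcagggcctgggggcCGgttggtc
Mapk11: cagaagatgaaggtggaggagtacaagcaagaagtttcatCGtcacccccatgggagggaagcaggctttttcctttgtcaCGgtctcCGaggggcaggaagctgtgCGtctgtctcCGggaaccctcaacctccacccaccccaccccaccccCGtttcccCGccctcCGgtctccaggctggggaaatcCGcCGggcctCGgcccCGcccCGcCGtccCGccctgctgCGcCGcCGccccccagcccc
The Mapk12 window held 11 CG dinucleotides and the Mapk11 window 18. Of 32851 such windows, 35.6% held at least 11 and 21.7% at least 18, with a median of 6. The upstream windows of Mapk13 and Mapk14 held 25 and 30. The AP-1 motif TGANTCA and the CRE motif TGACGTCA, searched on both strands (each is its own reverse complement), had no match in the 4 windows. They occurred in 6.75% and 1.55% of all windows. DNA methylation and factor binding were not measured here.

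Mapk12 had 131, 125 and 92 counts across the Control libraries, against 1 count in every 3A library. As CPM this was 4.15, 4.27 and 3.91 in the Control group, against 0.0287, 0.0266 and 0.0278 with α3, the latter below the 3 counts that set the detection floor of a library (0.0799 to 0.0860 CPM). The Control libraries lay close together and the groups did not overlap. From the summed counts of 348 and 3, the level was 149-fold lower in 3A (95% exact binomial interval 50.6 to 726, counting error only). This ratio describes the counts and supports nothing, because Mapk12 was chosen with the contrast known. Mapk12 passed the low-count filter through its Control libraries alone, which fixes the direction of its call. Of its 50-base words, 2.10% also occur in transcripts of other genes. The other 7 genes shared no 50-base word with any other gene, and no word was shared among the 8.

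Mapk11, the gene of the p38β isoform, measured 13.0, 9.64 and 10.2 CPM across the Control libraries, against 12.9, 13.5 and 13.2 CPM across those of 3A. The groups overlapped because Control 1 lay level with 3A. The log2 fold change was 0.27 (SE 0.17), and 0.42 (SE 0.15) without Control 1. The nearest tested genes outside the pair were not called by edgeR's quasi-likelihood test. These were Hdac10, Tubgcp6 and Selenoo on the Mapk12 side and Plxnb2, Dennd6b and Ppp6r2 on the Mapk11 side. Hdac10, whose end lies 1.884 kb from Mapk12, averaged 2.88 ± 0.366 CPM in Control against 2.44 ± 0.350 CPM with α3 (SD, n = 3; log2 fold change -0.24, edgeR adjusted p = 0.481). The 6 log2 fold changes ranged from -0.52 to 0.64. Without Control 1, Tubgcp6 (1.13) and Ppp6r2 (0.77) were called higher and Dennd6b (-0.76) lower, when 52% of all tested genes were called.

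**Figure D1:**
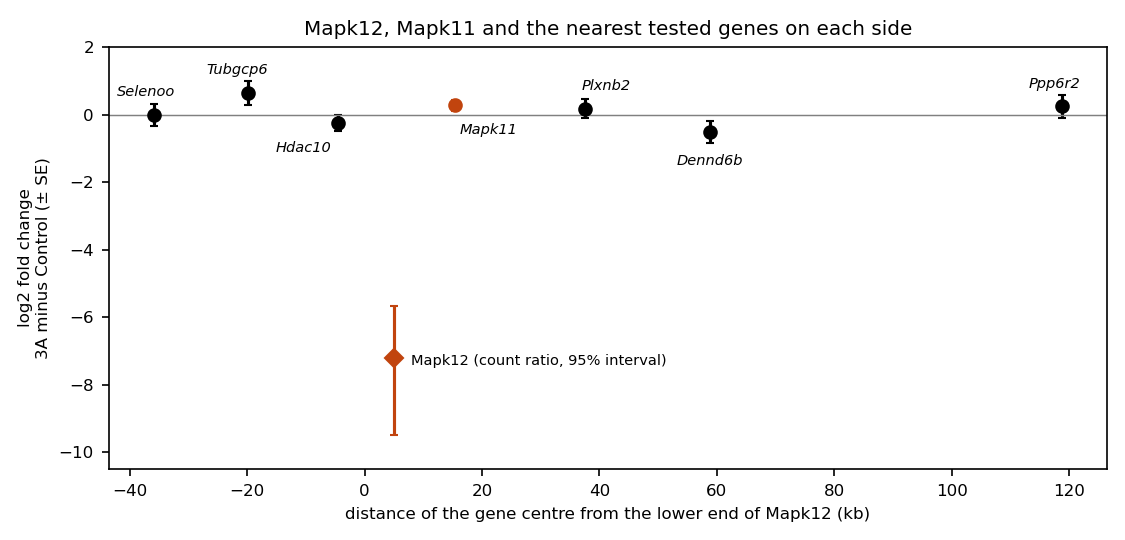
Log2 fold change (3A minus Control) of Mapk12, Mapk11 and the 3 nearest tested genes on each side, against the distance of each gene's centre from the lower end of Mapk12 in kb. Circles are edgeR estimates with their SE from 6 libraries, and the diamond is the Mapk12 ratio from summed counts (-7.22) with its 95% counting interval; the other 7 genes lie between -0.52 and 0.64.

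The other pair of isoform genes lies on the plus strand of chromosome 17, Mapk14 at 28691329 to 28748406 and Mapk13 at 28769297 to 28780233, 20.89 kb apart. Mapk13, for the p38δ isoform, measured 27.5, 35.6 and 32.3 CPM across the Control libraries, against 57.0, 47.8 and 46.9 CPM across those of 3A. All 3A libraries lay above all Control libraries, with 31.8 ± 4.07 against 50.6 ± 5.60 CPM (mean ± SD, n = 3). The level was 1.59-fold higher in 3A (log2 fold change 0.67, SE 0.16). Leaving out any 1 library gave log2 fold changes from 0.58 to 0.75, and Mapk13 stayed among the called genes only when the library left out was Control 1.

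Mapk14, for the p38α isoform, measured 73.6, 29.3 and 23.0 CPM across the Control libraries, against 47.7, 69.9 and 60.3 CPM across those of 3A. Control 1 held the highest value of the 6 libraries and the other Control libraries the lowest. With 6 libraries the log2 fold change was 0.50 (SE 0.43), and without Control 1 it was 1.19 (SE 0.20), which placed Mapk14 among the genes then called. Control 2 and Control 3 were also the libraries with the high mitochondrial share given above, and the part of that share in the Mapk14 values was not tested. The nearest tested genes of this pair were Srpk1, 68.62 kb before Mapk14, and Brpf3, 20.86 kb after Mapk13. Srpk1 (log2 fold change 0.37, edgeR adjusted p = 0.143) and Brpf3 (-0.46, edgeR adjusted p = 0.110) were not called. Without Control 1, Srpk1 was called higher (0.51, edgeR adjusted p = 0.0124), where 26.2% of all tested genes were.

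**Figure D2:**
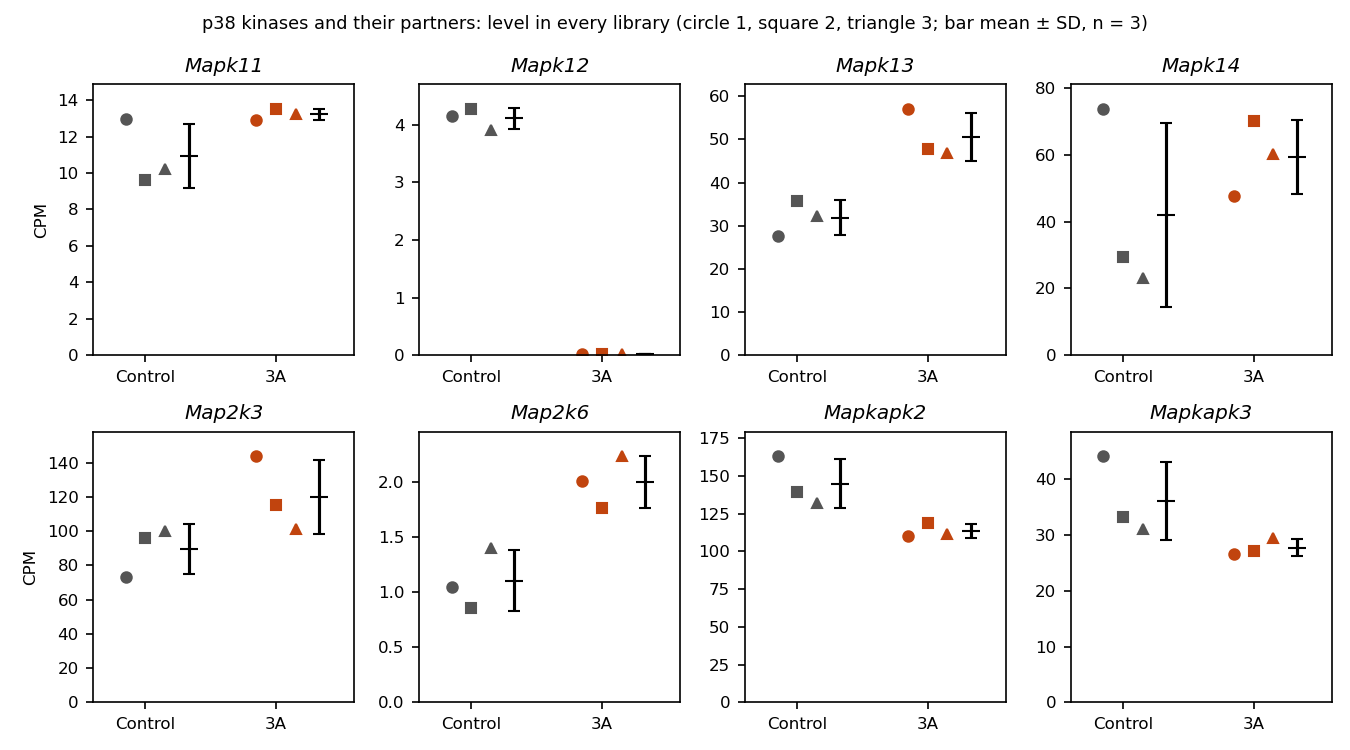
CPM of the 8 genes in every library, 1 panel per gene with its own axis from 0; circles, squares and triangles are libraries 1, 2 and 3 of each group, and the bar is the mean ± SD (n = 3). Mapk12 is near 0 in all 3A libraries, Mapk13 does not overlap between the groups, and Control 1 holds the highest Mapk14 value.

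To compare isoforms with each other, CPM was divided by the merged exon length in kb. Mapk13 and Mapk14 were the leading isoform genes in both groups. In Control the per-length levels were 10.1 ± 1.29 CPM per kb for Mapk13, 9.59 ± 6.31 for Mapk14, 3.79 ± 0.615 for Mapk11 and 1.08 ± 0.0491 for Mapk12 (SD, n = 3). Mapk13 and Mapk14 did not differ beyond their spread. In 3A they were 16.1 ± 1.78, 13.6 ± 2.55, 4.58 ± 0.102 and 0.00728 ± 0.000265 CPM per kb in the same gene order, and the ranges of Mapk13 and Mapk14 again overlapped. Mapk14 lay above Mapk11, and Mapk11 above Mapk12, in each of the 6 libraries. The sum of the 4 genes was 31.2, 22.5 and 20.1 CPM per kb across the Control libraries, against 33.5, 35.8 and 33.3 CPM per kb across those of 3A. The lowest 3A sum thus exceeded the highest Control sum, that of Control 1.

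As shares of that per-length sum, Mapk13 made up 28.1%, 50.4% and 51.1% across the Control libraries, against 54.0%, 42.3% and 44.7% across those of 3A. Mapk14 made up 54.0%, 29.8% and 26.2% across the Control libraries, against 32.6%, 44.6% and 41.4% across those of 3A. The leading gene therefore varied inside each group: Mapk14 led in Control 1 and 3A 2, and Mapk13 in the other 4 libraries. Mapk11 took 15.6 ± 1.75% in Control and 13.4 ± 0.375% in 3A. Mapk12 took between 3.50% and 5.11% in Control and at most 0.0225% in 3A, where it rests on 1 count a library. Without length scaling, Mapk14 held the larger mean share of the counts in both groups, 44.2% against 38.3% for Mapk13 in Control and 48.0% against 41.3% in 3A.

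**Figure D3:**
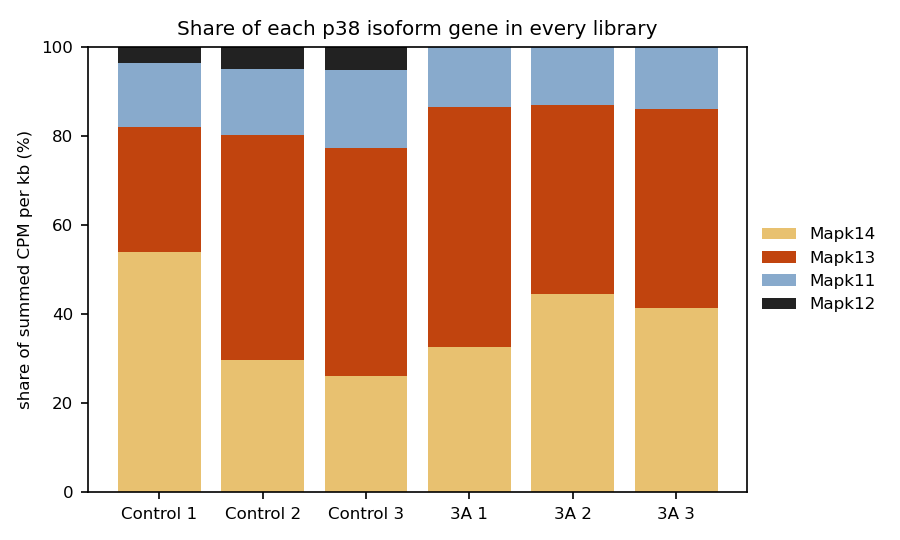
Share of each p38 isoform gene in the summed CPM per kb of Mapk11 to Mapk14, as 1 stacked bar per library from 0 to 100%. Mapk13 and Mapk14 fill most of each bar, Mapk14 leads in Control 1 and 3A 2, and the Mapk12 segment (3.50% to 5.11% in Control) is too thin to see in 3A.

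Of the activating kinases, Map2k3 measured 73.0, 96.1 and 100 CPM across the Control libraries, against 144, 115 and 101 CPM across those of 3A. The groups did not overlap, but 3A 3 and Control 3 were separated by less than 2 CPM. The log2 fold change was 0.42 (SE 0.20) and it was not called in any fit. Map2k6 was far scarcer, with 1.05, 0.854 and 1.40 CPM across the Control libraries, against 2.01, 1.76 and 2.23 CPM across those of 3A, from 25 to 80 counts a library. It did not overlap between groups either, with a log2 fold change of 0.86 (SE 0.29), and it was called by DESeq2 but not by edgeR with 6 libraries. Per kb, Map2k3 exceeded Map2k6 by 47.3 to 117 times in the 6 libraries.

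Of the effector kinases, Mapkapk2 measured 163, 139 and 132 CPM across the Control libraries, against 110, 119 and 112 CPM across those of 3A. Every Control library lay above every 3A library, and the log2 fold change was -0.35 (SE 0.14). Mapkapk3 measured 44.1, 33.2 and 31.1 CPM across the Control libraries, against 26.6, 27.2 and 29.5 CPM across those of 3A, again without overlap (log2 fold change -0.38, SE 0.18). Neither was called in any of the fits run, and without Control 1 the log2 fold changes were -0.25 and -0.20. Per kb, Mapkapk2 lay 6.73 to 7.95 times above Mapkapk3, a ratio whose range in Control (6.73 to 7.72) overlapped that in 3A (6.90 to 7.95). Per kb, Mapkapk2 was also the most abundant of the 8 genes in Control (47.6 ± 5.33 CPM per kb), above Map2k3 (27.1 ± 4.42). In 3A they were close, at 37.3 ± 1.48 for Mapkapk2 and 36.3 ± 6.51 CPM per kb for Map2k3. There the order was reversed in 3A 1 (36.2 against 43.4 CPM per kb).

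With edgeR's quasi-likelihood test and a Benjamini-Hochberg adjusted p under 0.05, 1 of the 8 genes was called higher (Mapk13) and 1 lower (Mapk12), where 7.52% of the 13704 tested genes were called higher and 7.39% lower, 14.9% in all. The groups did not overlap for 3 genes that were higher and 3 that were lower in 3A, against 18.6% and 17.6% of all tested genes, 36.1% in either direction. Nothing is read from these counts, because the genes were chosen with the contrast known. The median log2 fold change was 0.35 over the 8 genes and -0.02 over all tested genes. Without Control 1, Mapk11, Mapk13 and Mapk14 were called higher and Mapk12 lower, and leaving out any other library left Mapk12 alone. Without Control 1, 26.2% of all tested genes were called higher and 25.8% lower, 52% in all. The shares higher and lower were 2.93% and 3.06% without Control 2 (5.99% in all) and 3.52% and 3.46% without Control 3 (6.98%). They were 4.54% and 4.64% without 3A 1 (9.18%), 2.46% and 2.26% without 3A 2 (4.72%), and 2.5% and 2.27% without 3A 3 (4.77%). Mapk12 and Mapk13 were also the called members under relative log expression scaling (7.63% of genes higher and 7.51% lower, 15.1% in all) and under library size alone (7.04% and 5.92%, 13%). The same held with no low-count filter (3.95% and 4.22%, 8.17%) and with a filter of at least 1 CPM in 3 libraries (7.77% and 7.7%, 15.5%). DESeq2 added Map2k6 (12.2% and 13.8%, 26%), and the fit with a replicate block left Mapk12 alone (1.04% and 1.07%, 2.1%).

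**Figure D4:**
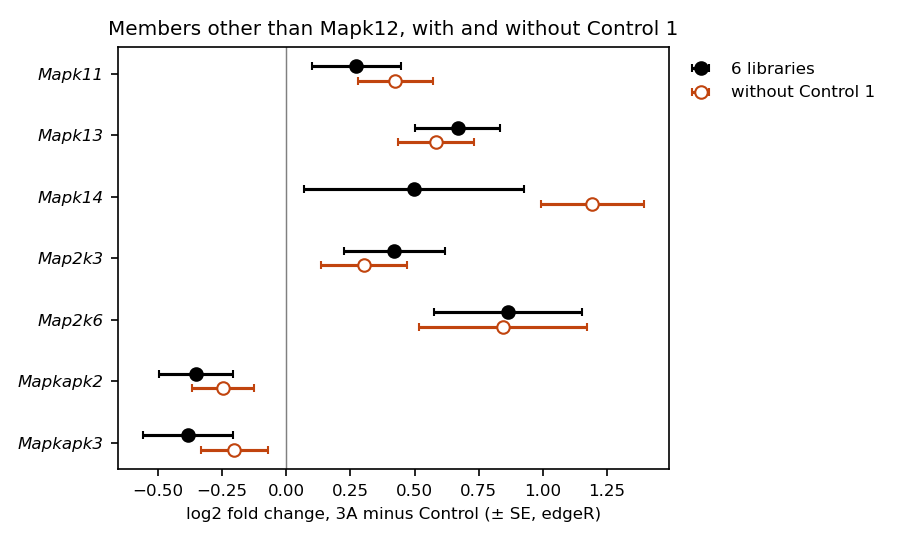
Log2 fold change (3A minus Control, ± SE, edgeR) of the 7 genes other than Mapk12, with all 6 libraries (filled) and without Control 1 (open). Mapk14 moves from 0.50 to 1.19, and all 7 genes keep their side of 0.

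Expression most like that of Mapk13, the gene with the largest absolute log2 fold change among members of at least 5 CPM, was found for Phb, Tubb2a and Ssna1. Over the 6 libraries their log2 CPM correlated with that of Mapk13 at 0.999, 0.997 and 0.996, the highest of 9689 genes compared. The 6 libraries fall into 2 groups that both genes of a pair share, and these correlations are given as a description. Tubb2a, a β-tubulin gene, measured 16.9, 24.5 and 22.8 CPM across the Control libraries, against 59.6, 45.2 and 43.1 CPM across those of 3A. Like Mapk13, it was lowest in Control 1 and highest in 3A 1. Tubb2a was called higher (log2 fold change 1.21), whereas Phb (0.46) and Ssna1 (0.38) were not called.

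The wider pathway was followed in 85 further genes in 8 lists, of which 77 passed the filter. Of these, 8 rose and 15 fell in 3A by edgeR, where 7.52% and 7.39% of all tested genes did, and their median log2 fold change was 0.06 against -0.02 over all tested genes. Scaling by library size alone gave 8 and 9, where 7.04% and 5.92% of all tested genes were called. The counts moved with single libraries: 26 genes were higher and 23 lower without Control 1, where 26.2% and 25.8% of all tested genes were. With Control 2 or Control 3 left out, 4 and 5 were higher and 4 and 5 lower. The shares over all tested genes were then 2.93% and 3.52% higher and 3.06% and 3.46% lower. With a 3A library left out, 4, 5 and 4 were higher and 9, 3 and 3 lower, in library order. Over all tested genes these shares were 4.54%, 2.46% and 2.5% higher and 4.64%, 2.26% and 2.27% lower. DESeq2 called 14 and 18, where it called 12.2% and 13.8% of all tested genes. The 7.52% and 7.39%, and these DESeq2 shares, are also the background for the counts of each list below.

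Among 20 upstream activators, 4 fell and 0 rose by edgeR (1 higher at an unadjusted p under 0.05, and 1 higher and 6 lower by DESeq2), with a list median log2 fold change of -0.18. Gadd45g, from the stress-induced family that binds the MAP3 kinase MEKK4, measured 11.1, 21.8 and 25.2 CPM across the Control libraries, against 6.91, 5.52 and 5.07 CPM across those of 3A. The log2 fold change was -1.73 (SE 0.32 and adjusted p = 0.0141 by edgeR), and the call was lost when Control 2, 3A 2 or 3A 3 was left out (adjusted p up to 0.0800). Gadd45b also fell (-1.52, edgeR adjusted p = 0.0487, called in 5 of 12 alternatives), whereas the third family member, Gadd45a, had a log2 fold change of -1.25 and did not pass (edgeR adjusted p = 0.0634). Tab2, an adaptor of the MAP3 kinase TAK1, fell by 0.63 and the MAP3 kinase gene Map3k6 by 0.70 on the log2 scale (edgeR adjusted p = 0.0277 and 0.0336). Both calls were lost when any library other than Control 1 was left out. They were also lost under library size alone and with no low-count filter. The TAK1 gene itself, Map3k7, averaged 94.3 ± 32.2 CPM in Control against 174 ± 39.7 CPM with α3 (SD, n = 3; log2 fold change 0.88, edgeR adjusted p = 0.0770).

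Of 7 tested phosphatases that act on p38, 2 fell and 0 rose (0 higher at an unadjusted p under 0.05 by edgeR, and 0 higher and 2 lower by DESeq2), with a list median of -0.10. Ppm1d, for the p53-induced phosphatase WIP1, averaged 27.1 ± 0.758 CPM in Control against 18.4 ± 0.848 CPM with α3 (SD, n = 3; log2 fold change -0.56, edgeR adjusted p = 0.0329). Dusp10, for a dual-specificity phosphatase of p38 and JNK, went from 36.8 ± 2.56 to 24.5 ± 2.80 CPM (-0.59, edgeR adjusted p = 0.0426). Both calls were lost when any library other than Control 1 was left out. They were also lost under library size alone and with no low-count filter. Dusp1, the best-known p38 phosphatase gene, averaged 14.5 ± 5.87 CPM in Control against 16.9 ± 3.04 CPM with α3 and was not called (edgeR adjusted p = 0.623). Ptpn5, Ptpn7 and Ptprr were too scarce to test.

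Of 6 other kinases phosphorylated by p38, 2 fell and 0 rose (1 higher at an unadjusted p under 0.05 by edgeR, and 1 higher and 2 lower by DESeq2), with a list median of -0.10. Mknk2, for a kinase of the translation factor eIF4E, measured 131, 128 and 145 CPM across the Control libraries, against 71.2, 71.5 and 61.1 CPM across those of 3A. The log2 fold change was -0.99 (SE 0.14 and adjusted p = 0.00567 by edgeR), and it stayed called whichever library was left out (adjusted p from 0.00133 to 0.0429). Its paralog Mknk1 had a log2 fold change of 0.54 that did not pass (edgeR adjusted p = 0.0924). Eef2k, for the kinase of elongation factor eEF2, fell by 0.60 (edgeR adjusted p = 0.0424), a call lost without any library other than Control 1. The Eef2k call was also lost under library size alone and with no low-count filter. Mapkapk5, Rps6ka4 and Rps6ka5 were not called, at log2 fold changes of -0.33, 0.12 and 0.35.

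Of 16 tested substrates of p38 or MK2, 4 fell and 1 rose, with a list median of -0.21. Hspb1, the small heat shock protein that MK2 phosphorylates, measured 183, 323 and 355 CPM across the Control libraries, against 69.5, 51.2 and 43.9 CPM across those of 3A. It was lower in every 3A library (log2 fold change -2.39, SE 0.30 and adjusted p = 0.00355 by edgeR) and stayed called whichever library was left out (adjusted p up to 0.0276). Ddit3, for the stress transcription factor CHOP, fell by 1.48 and the ETS factor gene Elk1 by 1.12 (edgeR adjusted p = 0.00814 and 0.0152). Zfp36, for the AU-rich element binding protein tristetraprolin that MK2 inactivates, fell by 1.15 (edgeR adjusted p = 0.0345), while Lsp1 rose by 1.57 at 4.85 CPM in 3A (edgeR adjusted p = 0.0268). They were called in 7 and 6 of 12 alternatives. The factor genes Atf2, Creb1 and Mef2a were not called, with log2 fold changes of 0.33, 0.30 and 0.14. The Ddit3 call was lost without 3A 2 or 3A 3, and the Elk1 call without any library other than Control 1 and 3A 1.

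The PDZ partners of p38γ encoded by Dlg1 and Ptpn3, scaffold and phosphatase genes, had log2 fold changes of 0.75 and 0.70 and were not called (edgeR adjusted p = 0.153 and 0.151). Without Control 1 these were 1.20 and 1.11, and both were called higher (edgeR adjusted p = 0.00203 and 0.00265). In that fit 26.2% of all tested genes were called higher, and 52% in either direction.

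Of 6 genes of the parallel JNK module, 2 rose and 0 fell (0 lower at an unadjusted p under 0.05 by edgeR, and 4 higher and 0 lower by DESeq2), with a list median of 0.62. Map2k7, for the JNK activator MKK7, averaged 41.1 ± 8.68 CPM in Control against 73.0 ± 11.8 CPM with α3 (SD, n = 3; log2 fold change 0.83, edgeR adjusted p = 0.0416), a call lost without any library other than Control 1. The other, the JNK3 gene Mapk10, had no more than 2 counts in a Control library and 20 to 27 in a 3A library. It passed the low-count filter through its 3A libraries alone, which fixes the direction of its call, and no fold is given because each Control library is under the floor of 3 counts. Of 10 ERK module genes, 2 fell and 0 rose (1 higher at an unadjusted p under 0.05 by edgeR, and 1 higher and 3 lower by DESeq2), with a list median of 0.06. These were the ERK5 gene Mapk7 (-0.86, edgeR adjusted p = 0.0176) and the MEK2 gene Map2k2 (-0.91, edgeR adjusted p = 0.0475), and both calls were lost without Control 2, Control 3, 3A 2 or 3A 3. The Map2k2 call was also lost under library size alone.

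Of 7 tested genes whose mRNAs are known to be controlled through p38 and MK2, 4 rose and 1 fell, with a list median of 0.75. Plau, for urokinase, and Ptgs2, for cyclooxygenase-2, differed in opposite directions, with log2 fold changes of 1.97 and -1.46 (edgeR adjusted p = 0.000846 and 0.00331). Both stayed called under each of 12 alternatives. Il1b, for interleukin-1β, measured 7, 2 and 1 counts across the Control libraries, against 55, 76 and 63 counts across those of 3A. It is among those called higher, but Il1b too passed the filter through its 3A libraries alone, which fixes the direction of its call. No fold is given because Control 2 and Control 3 are under the floor of 3 counts. Csf2 and Ier3 rose by 1.21 and 0.63 (edgeR adjusted p = 0.0152 and 0.0197) and were called in 8 and 6 of the 12 alternatives. Cxcl2 and Lif were not called, and Tnf, Il6 and Cxcl1 were too scarce to test. The list was chosen with the values of some of its genes known, so its counts are no independent evidence of a direction.

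**Figure D5:**
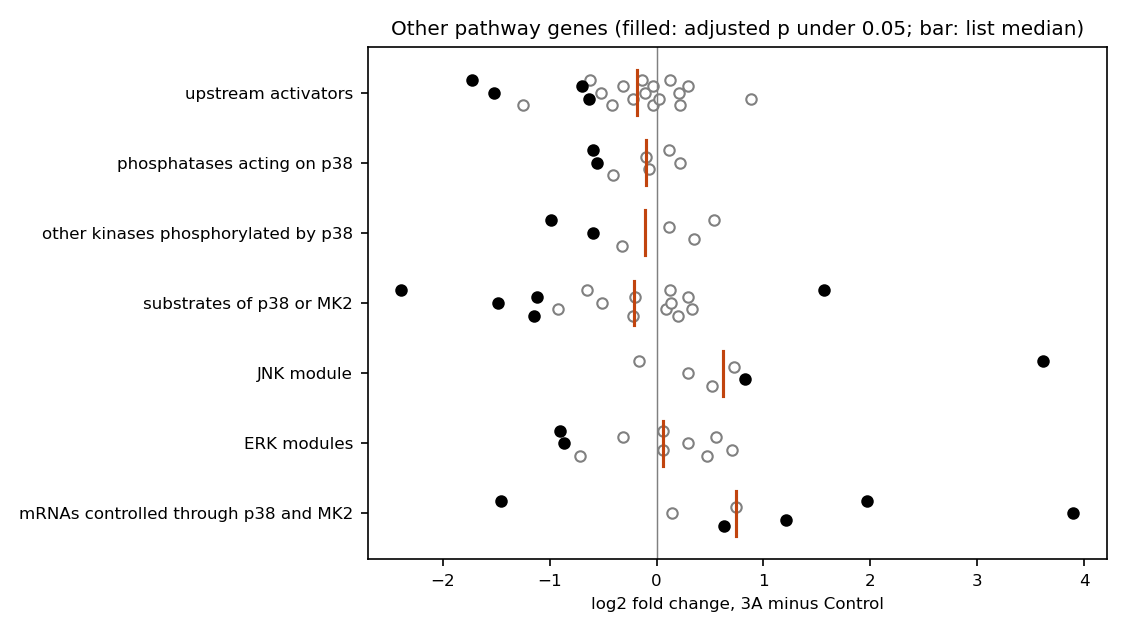
Log2 fold change (3A minus Control) of the tested pathway genes in 7 of the 8 lists, without the scaffolds and PDZ partners. Filled points have an edgeR adjusted p under 0.05, open points do not, and the vertical bar is the list median. Called genes of the first 3 lists lie left of 0, and Map2k7 of the JNK module lies right of 0. Mapk10 and Il1b are also filled, but passed the low-count filter through their 3A libraries alone, which fixes the direction of their calls. No fold is read from their points.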

How the data were processed

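For 6 libraries the authors deposited raw gene-level counts, which carry no normalization. The submitters' processing notes list the builds mm10, hg38 and GRCh38 and, as tools, featureCounts, Trim Galore, limma and edgeR, giving no roles. Aligner, annotation and strandedness were left unnamed there (not given in the sources used here). How reads of overlapping genes were assigned is therefore unknown. Mapk14 is overlapped by AC170998.1 on its strand, and Mapkapk2 by Gm25549 and Gm37084, with at most 1 count in a library. AC170998.1 is not among the counted genes, and neither member shared a 50-base word with the transcripts of another gene. GENCODE M21 (GRCm38, which is the mm10 assembly) supplied symbols, positions and exon lengths and matched 49056 of 49315 gene IDs. Upstream sequences came from the RefSeq promoter table (GRCm38.p6).

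Groups were compared with edgeR 4.0.16 in R 4.3.3 (filterByExpr, TMM scaling, glmQLFit and glmQLFTest, group as the only term), with Benjamini-Hochberg adjustment over 13704 genes and a threshold of 0.05. CPM uses TMM-scaled library sizes. In simulated counts for 3A against Control (13528 genes, 200 changed), recovery was 23% for 2-fold and 89% for 4-fold differences, with 5 false calls among 117. Each gene was simulated independently, with no library set apart as Control 1 was. These rates therefore need not hold for the real libraries. Replicate pairs differed by more than sampling noise (chi-square per degree of freedom 15.7 to 311).

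The members and lists were chosen with earlier results of these data known. All 8 members were named, with up to 3 called genes of smallest p per list, other listed genes with their values (some listed items are not reported here), the 3 genes most correlated with the most changed member of at least 5 CPM, and up to 3 tested neighbours per side within 100 kb of each gene pair. Alternatives were other scalings and filters, DESeq2 1.42.0, a replicate block, other length scalings of shares and leaving out each library.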

Additional observations from a re-analysis of the deposited data

How the results depend on the processing

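Over all genes, DESeq2 called 1678 higher and 1887 lower, and leaving out 1 library gave 346 to 3751 higher and 318 to 3690 lower. Of the 8 members, DESeq2 called 2 higher and leaving out 1 library 0 to 3. Of the pathway genes, DESeq2 called 14 higher, library size alone gave 9 lower, and leaving out 1 library gave 4 to 26 higher and 3 to 23 lower. The shares over all tested genes under each setting are given beside these counts in the results above. With the replicate number as a block, 142 genes were higher and 146 lower, with 0 members higher by edgeR (2 at an unadjusted p under 0.05) and 1 pathway gene in each direction. Of 26 genes followed singly, 17 lost their call under the block, Il1b among them (edgeR adjusted p = 0.0584). Only Mapk12, Plau and Ptgs2 kept theirs, and the other 6 members had no call to lose. Deviations of same-numbered libraries from their group means correlated at -0.66, -0.42 and -0.37, and none correlated best with its own number. Each group was centred on its own 3 libraries, and Control 1 and 3A 1 stood apart from theirs. These correlations therefore cannot tell whether same-numbered libraries were handled together. The median log2 fold change of all tested genes moved by less than 0.1 under each scaling. Without length scaling the Mapk11 share was 12.6% in Control and 10.8% in 3A and the Mapk14 share in 3A 48.0%. Per kb of the longest transcript the Mapk12 share was 7.65% in Control and 0.0371% in 3A. No log2 fold change of a member or of the 18 listed genes that the naming rule picked reversed. Depth limits Mapk12 in 3A, at 1 count a library, and Map2k6, at 25 to 80 counts.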

Other observations

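Mapk12 belonged to a small set of genes with this pattern. With limits chosen after seeing the data, at most 0.1 CPM in every 3A library and at least 3 CPM in every Control library, 11 of 13704 tested genes qualified, Mapk12 among them. The highest mean in Control was that of Slc25a13, a mitochondrial aspartate-glutamate carrier gene, at 58.6, 25.6 and 22.5 CPM across the Control libraries, against 0.0860 CPM or less with α3. Mapk12 was the only one of the 11 on chromosome 15. The reverse pattern, at the same limits, was shown by 4 genes: Gm364, Magea8, Ret and Fam83a. Of these, Ret, a receptor tyrosine kinase gene, had at most 0.0951 CPM in Control against 3.93 to 4.42 CPM with α3.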
